A study of Mus musculus with 16 samples.

Results

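The genes described here code for the alternative and terminal arms of complement and for one of its receptors: C3, Cfb, Cfd, Cfp, Cfi, C3ar1, Hc, C6 and C7. All array probes whose gene name in the scanner files is one of these 9 were taken, which gave 11 probes among 41174, and the 9 genes stand among 28482 named on the array. Where a gene had more than 1 probe (C3 and C3ar1, with 2 each), the brighter one over all arrays was taken as its main probe.

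Transcript levels were measured in aortas of female C57BL/6 mice deficient in ApoE, a model that develops atherosclerosis. All mice had been ovariectomized at 4 to 5 weeks of age and were given a high-fat Western-type diet, controls included. Subcutaneous pellets made to last 90 days delivered placebo or one of 2 synthetic progestins, norethisterone acetate (NET-A) and medroxyprogesterone acetate (MPA), and tissue was taken after 78 to 90 days. Each progestin had a placebo group of its own, giving 4 groups of 4 arrays (MPA placebo, MPA, NET-A placebo and NET-A) in 2 experiments of 8 arrays. The labels mark the placebo groups M and N, read here as the controls of MPA and NET-A, whose slides they share. The labels give neither the doses nor whether each sample is a separate animal, and every p-value rests on the variation among these arrays alone, which may be technical.

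Complement is a set of blood proteins made mainly in liver and also in fat, macrophages and vessel walls. In the alternative pathway, C3 that has been cleaved binds factor B, factor D cuts factor B, and properdin stabilizes the resulting enzyme, which cleaves more C3; factor I, with its cofactors, inactivates the C3 fragment. Further on, C5 is split and its larger piece gathers C6, C7 and later components into the membrane attack complex, while the small fragments call in leukocytes through receptors such as C3aR. Complement proteins are found in atherosclerotic plaques.

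Each level below is one probe's signal as log2, with 0 at the 75th percentile of that array's probes, so a level of 1 is a signal 2 times that percentile. Levels of different probes are not comparable, because probes hybridize with different efficiency. The probes of C3 and C3ar1 come first because the 2 readings of each gene are set side by side below. Cfb follows because replicate 4 of the MPA placebo lay far above the rest of its group. Cfi and C7 follow because they separated the groups of the MPA and the NET-A experiment, respectively. The probe is 60 bases long in each case. The Cfb probe and the second C3 probe lie across 357 and 158 bases of genome, so they cross an intron and are given whole; the others are given by their first 30 bases.
C3, main probe: attcacagaatctatggtggtttatggttg
C3, second probe: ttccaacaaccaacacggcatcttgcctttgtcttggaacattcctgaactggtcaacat
C3ar1, main probe: tgccatcatctcagtgtagcacacacaatc
C3ar1, second probe: caggatcaatgcatgcttcaacagcaatat
Cfb: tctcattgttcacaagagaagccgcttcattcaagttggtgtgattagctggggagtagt
Cfi: aaatgaaactgtatagttagttctcctcag
C7: agattacacagcatatgaaaagtttggtga

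On build mm9, as the array files give it, the main C3 probe reads chr17:57343416-57343475 on the minus strand and the second C3 probe chr17:57364538-57364695 on the same strand, so the 2 probes sample different places in the transcript. The Cfb probe lies at chr17:34993502-34993858 (minus). The C3ar1 probes lie at chr6:122798222-122798281 and chr6:122798696-122798755 (both minus), and that of Cfi at chr3:129578111-129578170 (plus). The C7 probe, at chr15:4997491-4997550 (minus), was designed on a cDNA clone rather than on a reference transcript. The remaining probes read Cfd at chr10:79355302-79355361 (plus), Cfp at chrX:20502742-20502801 (minus), Hc at chr2:34838899-34838958 (minus) and C6 at chr15:4748363-4748422 (plus). Exon and UTR positions on mm9 were not used here.

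No member changed at an adjusted p under 0.05 in limma, with either progestin, in the difference between the 2 responses or in their mean. The count was 0 of 8 members with MPA, where 0% of 15374 genes tested passed, and 0 of 9 with NET-A, where 0% of 21183 passed. For the difference and the mean it was 0 of 8 members each, with 0% of 15243 genes passing in either. At an unadjusted limma p under 0.05 on the main probe, 1 of 8 members stood out with MPA (Cfi, where 6.21% of all genes did). With NET-A 3 of 9 did (Cfb, C3ar1 and C7, where 6.17% of all genes did). The difference gave 1 of 8 (C7; 6.82%) and the mean 3 of 8 (Cfi, C3ar1 and C7; 6.5%).

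Of the 8 members that passed the filter on dim probes in the MPA experiment, 8 had a lower mean with MPA, by a median of -0.38; 52.2% of all genes tested were lower, with a median of -0.01. With NET-A 7 of 9 were lower, by a median of -0.28, beside 54.7% and -0.02 over all genes. Replicate 4 of the MPA placebo was the highest of its group for 5 of 9 members, and without it 5 members were lower with MPA. Without any other single array the count was 6 to 8. MPA replicate 2 was the lowest of its group for 6 of 9 members, and without it 6 members were lower with MPA. That array also had the smallest share of spots well above background, 46.3%. Without it the difference was -0.20 for C3 and -0.08 for Cfp, but -1.08 for Cfi and -1.18 for Hc. Replicate 4 of the NET-A placebo was the highest for 8 of 9. The NET-A count was 6 without it, and also 6 without placebo replicate 2, NET-A replicate 2 or NET-A replicate 4.

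**Figure D1:**
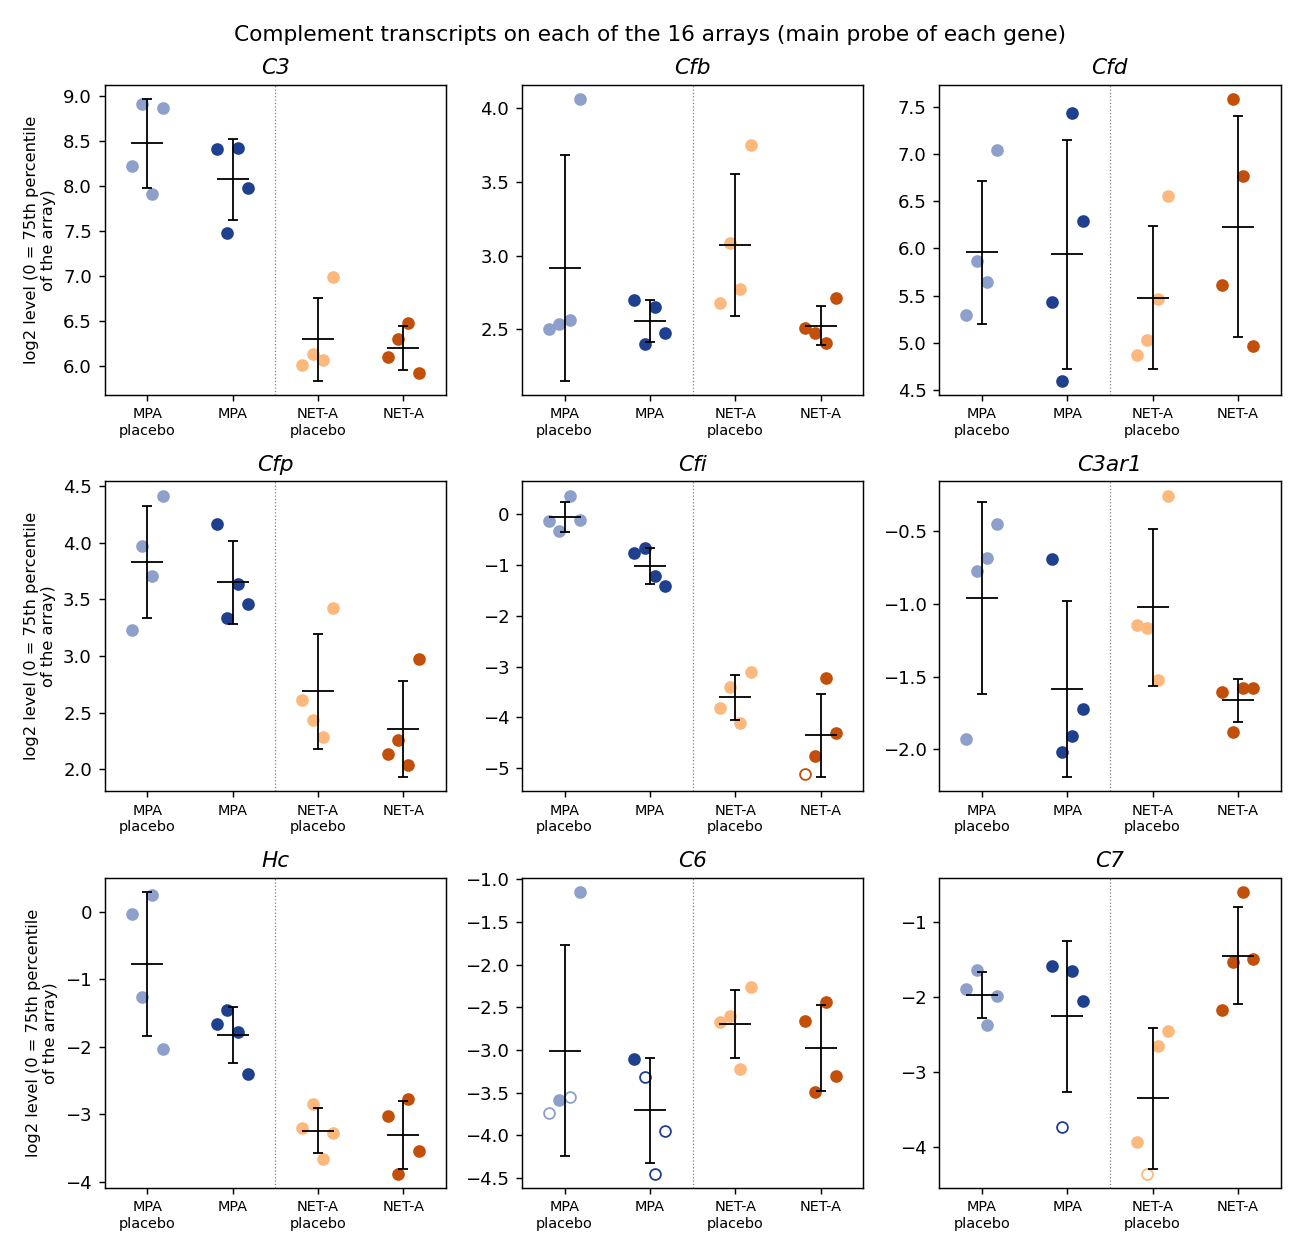
Log2 level of each of the 9 genes (vertical axis, 0 is the 75th percentile of the array) on every array of the 4 groups (horizontal axis, 4 arrays each); bars are mean ± SD, open circles are arrays where the probe was not well above background. Cfi falls into separate ranges in the MPA experiment, C7 and C3ar1 in the NET-A experiment, and 1 placebo array of each experiment is often its group's highest point.

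C3 is the protein on which all complement pathways meet. In the MPA experiment its main probe read 8.22, 8.91, 7.91 and 8.86 on the placebo arrays and 8.42, 7.48, 8.43 and 7.98 on the MPA arrays. The 2 ranges overlapped, and the difference was -0.40 ± 0.30 (SE, n = 4 and 4; adjusted p = 0.869, limma; 95% interval -1.07 to 0.27). Levels in the NET-A experiment were 6.01, 6.13, 6.07 and 6.99 with placebo and 6.10, 6.31, 6.48 and 5.93 with NET-A. Placebo replicate 4 was the highest of the 8 and the other placebo arrays lay within the range of the NET-A arrays. The difference was -0.10 ± 0.24 (adjusted p = 0.997). Without that placebo array it was 0.13.

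The second C3 probe, far dimmer and with 1 spot an array where the main probe has 10, gave the other sign with MPA. It read -1.57, -0.36, -0.59 and 0.43 with placebo against -0.80, -0.12, 0.13 and -0.44 with MPA, a difference of 0.21 ± 0.39 (adjusted p = 0.943, limma). The placebo arrays alone spanned both sides of all 4 MPA arrays. With NET-A it read -1.24, -1.16, -1.47 and -0.64 (placebo) and -1.95, -1.06, -1.62 and -1.67 (NET-A), a difference of -0.45 ± 0.24 (adjusted p = 0.860). The deviations of the 2 probes from their group means correlated by 0.447 over 16 arrays (rho 0.415), 0.343 within the MPA experiment and 0.702 within the NET-A experiment. With normexp background correction the main probe's difference with MPA was -0.80 (adjusted p = 0.158) and that with NET-A 0.06.

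Factor B (Cfb) supplies the protease part of the enzyme that cleaves C3. With MPA placebo it read 2.51, 2.54, 2.56 and 4.06, and with MPA 2.70, 2.40, 2.65 and 2.47. Replicate 4 lay far above the other 3 placebo arrays, which fell inside the range of the MPA arrays. The difference of -0.36 ± 0.34 (adjusted p = 0.890, limma) became 0.02 without it. Levels with NET-A and its placebo were 2.68, 3.09, 2.77 and 3.75 (placebo) and 2.51, 2.48, 2.41 and 2.71 (NET-A). Only the highest NET-A array exceeded the lowest placebo array, and the difference was -0.55 ± 0.23 (adjusted p = 0.806; 95% interval -1.08 to -0.01). It was -0.32 without placebo replicate 4.

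Factor D (Cfd), the adipsin of fat cells, is the protease that activates factor B. It varied more within groups than the other members in the NET-A experiment, with a pooled SD of 0.986, above that of 95.4% of genes tested. Placebo arrays of the MPA experiment read 5.29, 5.87, 5.65 and 7.04, and MPA arrays 5.43, 4.60, 7.44 and 6.29. The MPA arrays held both the lowest and the highest value of the 8, and the difference was -0.02 ± 0.60 (adjusted p = 0.997, limma; 95% interval -1.37 to 1.32). With NET-A the values were 4.87, 5.03, 5.47 and 6.55 (placebo) and 5.61, 7.58, 6.77 and 4.96 (NET-A). These ranges overlapped widely, and the difference was 0.75 ± 0.60 (adjusted p = 0.934; 95% interval -0.63 to 2.14). An interval this wide leaves a change of 2 times in either direction within reach for MPA.

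Marker genes of fat cells had median differences of 0.03 (MPA) and 0.02 (NET-A) over 8 of 8 genes kept, with members on both sides of 0. With NET-A they ran from -0.23 to 1.00, the highest being Retn, and 5 of 5 brown fat markers were lower (median -0.56), none at an adjusted p under 0.05 in limma. Of the 8, Lep was well above background on 12 arrays and the others on 16. The mean level of the 8 ran from 2.99 to 3.49 on MPA placebo arrays, 3.15 to 3.83 with MPA, 2.36 to 3.02 on NET-A placebo arrays and 1.98 to 3.90 with NET-A. The part of fat-cell content in the Cfd levels was not tested.

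Properdin (Cfp), made by myeloid cells, read 3.23, 3.97, 3.70 and 4.42 with MPA placebo and 4.16, 3.33, 3.64 and 3.46 with MPA. The placebo arrays reached both below and above all MPA arrays. The difference was -0.18 ± 0.28 (adjusted p = 0.924, limma) and 0.01 without placebo replicate 4. In the NET-A experiment it read 2.61, 2.44, 2.28 and 3.42 (placebo) and 2.14, 2.26, 2.04 and 2.98 (NET-A). Of the 4 NET-A arrays, 3 lay below every placebo array, while replicate 4 was high in both groups. The difference was -0.33 ± 0.30 (adjusted p = 0.948), and -0.09 without placebo replicate 4.

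Factor I (Cfi), the protease that inactivates the C3 and C4 fragments, separated the groups of the MPA experiment. It read -0.13, -0.33, 0.37 and -0.12 with placebo and -0.76, -0.67, -1.21 and -1.41 with MPA. Every MPA array lay below every placebo array, which held for 1.2% of all genes tested, and Cfi was the 1 member of 8 for which it did. The difference was -0.96 ± 0.22 (95% interval -1.46 to -0.46), a ratio of 0.514, with adjusted p = 0.662 in limma. It was -0.49 within slide 1 and -1.43 within slide 2, each with 2 arrays a group, and -0.61 with normexp background correction (adjusted p = 0.114).

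In the NET-A experiment the Cfi probe was dim, at -3.81, -3.40, -4.11 and -3.10 with placebo and -5.11, -4.77, -3.22 and -4.31 with NET-A, the first of which was not well above background. NET-A replicate 3 lay among the placebo arrays and the other 3 below all of them. The difference was -0.75 ± 0.41 (adjusted p = 0.867, limma; 95% interval -1.69 to 0.19). It was -1.13 without replicate 3. The mean of both responses was -0.85 ± 0.24 (adjusted p = 0.443), and the responses differed by -0.21 (MPA less NET-A; 95% interval -1.23 to 0.81).

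C3ar1 codes for the receptor of the C3a fragment, carried by macrophages and other myeloid cells. With MPA placebo its main probe read -1.93, -0.77, -0.69 and -0.45, and with MPA -0.69, -2.02, -1.91 and -1.72. In each group 3 arrays lay together and replicate 1 lay where the other group was, so the ranges overlapped. The difference was -0.62 ± 0.38 (adjusted p = 0.856, limma), -0.01 within slide 1, -1.24 within slide 2, and 0.01 with normexp background correction. The second probe read -0.79, -0.03, -0.44 and 0.20 with placebo and -0.76, -1.15, -0.88 and -1.49 with MPA, a difference of -0.80 ± 0.25 (adjusted p = 0.773). On it, a single pair of arrays, both replicate 1, kept the ranges from parting.

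In the NET-A experiment the main C3ar1 probe read -1.14, -1.17, -1.52 and -0.26 with placebo and -1.61, -1.88, -1.58 and -1.58 with NET-A. Every NET-A array lay below every placebo array, as it did for 2.3% of all genes tested; C3ar1 was the 1 member of 9 so placed. The gap between the groups was narrow, 3 of the 4 NET-A arrays lying just below the lowest placebo array. The difference was -0.64 ± 0.26 (adjusted p = 0.788, limma; 95% interval -1.23 to -0.05), and -0.38 without placebo replicate 4. The second probe also parted the groups, at -2.80, -3.02, -2.91 and -1.47 with placebo and -3.54, -3.58, -3.48 and -3.02 with NET-A, by -0.85 ± 0.34 (adjusted p = 0.788). Its NET-A replicate 1 was not well above background. The deviations of the 2 probes from the group means correlated by 0.74 over 16 arrays (rho 0.688), 0.717 and 0.9 within the MPA and NET-A experiments.

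Macrophage markers were lower too. All 12 of the 12 listed were well above background on all 16 arrays. Of them, 12 of 12 were lower with MPA (median -0.60) and 12 of 12 with NET-A (median -0.50), none at an adjusted p under 0.05. Their mean level ran from 3.53 to 4.42 with MPA placebo and 3.18 to 3.52 with MPA, and from 1.98 to 3.36 with NET-A placebo and 1.73 to 2.19 with NET-A. In such bulk tissue, fewer cells of a type and less RNA per cell cannot be told apart. The part of macrophage content in the levels of Cfp and C3ar1 was not tested.

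Hc codes for C5, the first component of the terminal pathway and the source of C5a. In the MPA experiment it read -0.03, -1.26, 0.25 and -2.04 with placebo and -1.66, -1.45, -1.77 and -2.41 with MPA. Placebo replicates 1, 2 and 3 lay above every MPA array and replicate 4 below 3 of them. The difference was -1.05 ± 0.48 (adjusted p = 0.817, limma; 95% interval -2.14 to 0.04), -1.48 without placebo replicate 4, and -0.33 with normexp background correction. For NET-A, Hc read -3.20, -2.85, -3.66 and -3.28 with placebo and -3.03, -3.88, -2.77 and -3.55 with NET-A. The groups covered the same range, and the difference was -0.06 ± 0.27 (adjusted p = 0.997; 95% interval -0.69 to 0.57). The difference between the responses was -0.99 ± 0.59 (adjusted p = 0.810), and -0.03 with normexp background correction.

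Liver transcripts were measurable in the MPA experiment and were lower with MPA, as Hc was. Of 6 hepatocyte markers on the array (of 7 listed), 5 were kept and 5 were lower with MPA, with a median of -0.95. Their mean level was 0.47, 0.55, 1.86 and -0.11 on the placebo arrays and ran from -0.48 to 0.42 with MPA. Placebo replicate 3 stood far above the rest, and placebo replicate 4 lay within the MPA range. With NET-A 4 were kept, 2 higher and 2 lower, with a median of 0.19. There the mean level ran from -4.11 to -2.65 with placebo and from -3.80 to -2.90 with NET-A, with 1 to 5 of the 6 well above background on an array. Ttr was well above background on 0 of 16 arrays, Alb on 12 and Ahsg on 16. Ahsg, the fetuin of liver, differed by -1.03 ± 0.25 with MPA (adjusted p = 0.662, limma), and all 4 MPA arrays lay below all placebo arrays. The part of liver transcripts in the levels of Hc and Cfi was not tested.

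C6, which joins C5b to start the pore, was at the edge of detection. In the MPA experiment it was well above background on 2 of 4 placebo arrays and 1 of 4 MPA arrays, which left it out of the test. It read -3.73, -3.59, -3.55 and -1.15 with placebo (replicates 1 and 3 not well above background) and -3.11, -3.32, -4.45 and -3.95 with MPA (only the first well above background). Placebo replicate 4 alone was clearly brighter, and the rest gave no order. In the NET-A experiment all 8 arrays were well above background, at -2.68, -2.61, -3.23 and -2.26 with placebo and -2.67, -3.49, -2.44 and -3.30 with NET-A. These ranges overlapped, and the difference was -0.28 ± 0.29 (adjusted p = 0.963, limma; 95% interval -0.95 to 0.38).

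C7, which anchors the complex in the membrane, was higher with NET-A, by more than any other member differed in either experiment at the processing used here. The placebo arrays read -3.94, -4.36, -2.66 and -2.46, the second not well above background, and the NET-A arrays -2.18, -1.53, -0.61 and -1.50. Every NET-A array lay above every placebo array, as for 1.61% of all genes tested, and this was the 1 member of 9 so placed. The difference was 1.90 ± 0.50 (95% interval 0.76 to 3.04), a ratio of 3.73 (1.70 to 8.20), with adjusted p = 0.607 in limma. By slide it was 1.76 on slide 3 and 3.75 on slide 4, each with 1 array a group, and 1.04 on slide 5 with 2. With normexp background correction it was 0.56 (adjusted p = 0.822), less than Cfd with NET-A (0.94). It was then also smaller in size than C3 (-0.80), Cfb (-0.62) and Cfi (-0.61) with MPA and Cfi with NET-A (-0.60). Normexp adds an offset of 50 to each signal, which draws log2 differences of dim probes such as C7 toward 0. This order therefore does not set dim and bright probes on like terms.

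With MPA no such difference was seen. C7 read -1.90, -1.65, -2.37 and -2.00 with placebo and -1.60, -3.74, -1.66 and -2.05 with MPA. MPA replicate 2 was the lowest and was not well above background; the other 3 lay within the placebo range or just above it. The difference was -0.28 ± 0.44 (adjusted p = 0.926, limma; 95% interval -1.29 to 0.72), 0.21 without replicate 2 and 0.45 with normexp background correction. No member of the MPA experiment had all MPA arrays above all placebo arrays, which held for 2.22% of all genes tested. The 2 responses of C7 differed by -2.18 ± 0.70 (MPA less NET-A; adjusted p = 0.565; 95% interval -3.67 to -0.70). With normexp background correction they differed by -0.11.

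Platelet transcripts were higher with NET-A beside C7. All 4 markers (Ppbp, Pf4, Itga2b and Gp9) were well above background on all 16 arrays and 4 of 4 were higher with NET-A, with a median of 1.98, none at an adjusted p under 0.05. Their mean level ran from -1.36 to 0.38 with NET-A placebo and 0.25 to 1.84 with NET-A. With MPA 4 of 4 were higher too, with a median of 0.54, at levels of 1.23 to 1.90 and 1.65 to 2.74. Platelet markers were not alone in this: with NET-A, skeletal muscle markers were higher in 5 of 5 (median 1.15), erythroid markers in 4 of 4 (median 1.52) and neutrophil markers in 7 of 9 (median 0.94). The part of any of these transcripts in the level of C7 was not tested.

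**Figure D2:**
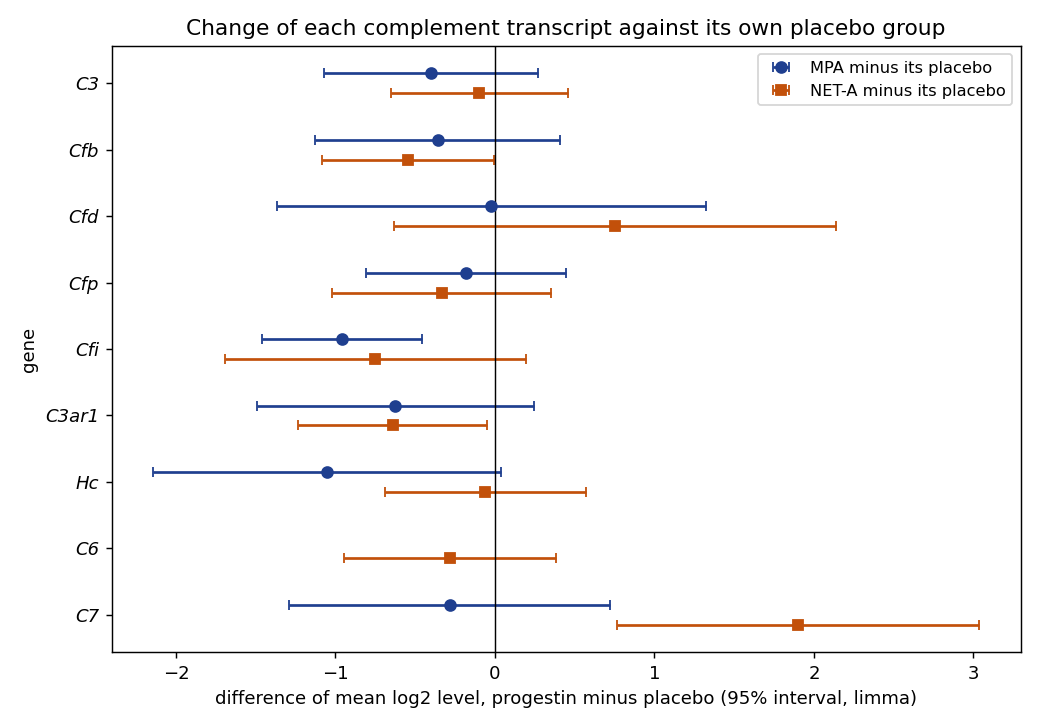
Difference of mean log2 level between each progestin and its own placebo (horizontal axis, with 95% limma interval) for each gene (vertical axis); circles are MPA, squares NET-A, 4 arrays a group. The intervals of Cfi with MPA and of Cfb, C3ar1 and C7 with NET-A leave out 0 before adjustment, and C7 with NET-A is the one such value above 0.

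Apart from C7 and Hc, the differences between the responses were smaller than their standard errors. MPA less NET-A gave -0.30 ± 0.39 for C3, 0.19 ± 0.43 for Cfb, 0.15 ± 0.42 for Cfp and 0.02 ± 0.49 for C3ar1. The 95% interval for C3ar1 ran from -1.02 to 1.05, so responses differing by up to 2 times either way were not detectable with these arrays. For Cfd the difference was -0.78 ± 0.90, with an interval from -2.68 to 1.13. MPA derives from progesterone and NET-A from testosterone; their doses are not in the labels, so these differences do not compare equal doses.

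Levels of some members differed far more between the experiments than between progestin and placebo. The placebo mean of Cfi was -0.05 ± 0.30 (SD, n = 4) in the MPA experiment and -3.61 ± 0.44 in the NET-A experiment, higher in the former by 3.56. A difference of larger size was seen for 0.978% of 14518 genes. Hc differed by 2.48 (3.86% of genes larger) and C3 by 2.18 (6.19%), also higher in the MPA experiment, where the median size over all genes was 0.745. C3ar1 (0.06), Cfb (-0.16), C6 (-0.31) and Cfd (0.48) lay under that median. For C3 and C3ar1 these values are those of the main probes, and the second probes placed the genes otherwise. The second C3 probe had placebo means of -0.52 and -1.13 in the MPA and NET-A experiments, a smaller gap than the main probe. The second C3ar1 probe had placebo means of -0.27 and -2.55, where the main probe's were nearly equal. Slides, scanner software and placebo group changed together between the experiments, so these cannot be told apart.

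The remaining complement genes, from a list of 40 (classical and lectin pathways, regulators, receptors and late components), gave the setting. With MPA 32 were kept and 27 were lower, by a median of -0.37; with NET-A 34 were kept and 24 were lower, by a median of -0.15. None passed at an adjusted p under 0.05 in limma, and 3 of 32 and 2 of 34 had an unadjusted p under 0.05, where 6.21% and 6.17% of all genes did. Over all genes, 52.2% were lower with MPA and 54.7% with NET-A. Without NET-A placebo replicate 4 the count of lower genes with NET-A was 18. C9, C5ar1 and Mbl1 were each well above background on 1 of 16 arrays.

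C1qb and Itgax were lower by 0.5 or more with both progestins, and C1qc and Itgam with NET-A. With MPA, C1qc (-0.497 ± 0.405) and Itgam (-0.490 ± 0.403) fell just short of that size. C1qb, a chain of the C1q recognition molecule that macrophages make, differed by -0.70 ± 0.24 with MPA and -0.55 ± 0.34 with NET-A, and C1qc by -0.64 ± 0.30 with NET-A. Itgax, a chain of complement receptor 4 on myeloid cells, differed by -0.51 ± 0.33 with MPA and -1.05 ± 0.34 with NET-A, and Itgam, of complement receptor 3, by -0.54 ± 0.29 with NET-A. None of these passed, with adjusted p from 0.676 to 0.888.

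Other genes of the list reached that size in 1 experiment. Of these, Mbl2 was kept only in the MPA experiment and Cd46 only in the NET-A experiment. With MPA the values were -0.98 ± 0.46 for Mbl2, a lectin made in liver, and -0.79 ± 0.33 for Vtn, which keeps the pore from inserting. Cpn1, which trims C3a and C5a, gave -0.84 ± 0.94, and Colec12, a scavenger receptor, -0.75 ± 0.39. Vtn was lower on every MPA array than on every placebo array. With NET-A the membrane regulator Cd46 gave -0.85 ± 0.27. In the difference between the responses Fcna stood at -0.66 ± 0.46, Cd55 at -0.59 ± 0.43, Vtn at -0.73 ± 0.57, Colec12 at -0.77 ± 0.42 and Cpn1 at -1.08 ± 0.98, while Itgax stood at 0.54 ± 0.49. None of them passed at an adjusted p under 0.05 in limma.

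**Figure D3:**
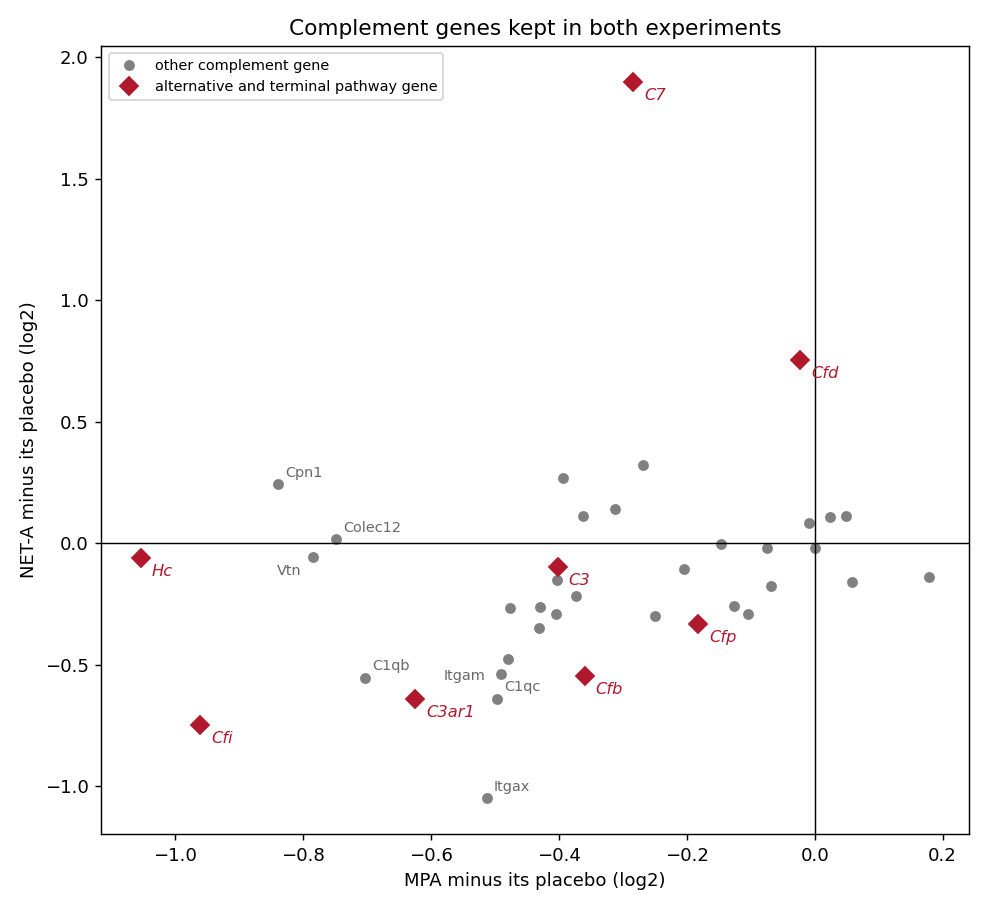
Log2 change with MPA (horizontal axis) and with NET-A (vertical axis), each against its own placebo, for complement genes kept in both experiments; diamonds are the genes described here, grey points the other complement genes. C7, at -0.28 and 1.90, stands apart from the other points.

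Across arrays, the members did not vary as one group. Deviations from the group mean were correlated over the 16 arrays, as a description without a test; arrays share slides, and each gene's scale shares the array's percentile. Cfp and C3ar1 varied together (r = 0.816, rho = 0.724; 0.902 within the MPA experiment, 0.760 within the NET-A experiment, 0.846 without the 2 arrays farthest from the median). Cfb followed Cfp (r = 0.739, rho = 0.635; 0.571 without those 2 arrays). C3 went with C7 (r = 0.701, rho = 0.653; 0.647 without 2) and with Cfd (r = 0.699, rho = 0.706; 0.716 without 2). Hc ran against C3, Cfb, Cfd and Cfp, at r from -0.532 to -0.442. Within the NET-A experiment these 4 values ran from -0.242 to 0.122, so the opposite course rests on the MPA experiment.

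The means of marker lists were set beside the members in the same way, over the markers that were kept in both experiments and had a value on all 16 arrays after outlier spots were left out (11 for macrophages, 3 for hepatocytes, 7 for fat cells, 4 for platelets). Cfp followed the macrophage markers (r = 0.899, rho = 0.832; 0.936 and 0.884 within the experiments), as did C3ar1 (r = 0.760), C3 (r = 0.739) and Cfb (r = 0.727, and 0.464 without the 2 farthest arrays). Cfi did not (r = 0.200). Fibroblast and adventitia markers (8 genes) were followed too, by Cfp (r = 0.678), C3 (0.669), Cfb (0.596) and less by C3ar1 (0.462). In the same order these values were 0.520, 0.738, 0.453 and 0.253 within the MPA experiment. Within the NET-A experiment they were 0.854, 0.570, 0.870 and 0.862. Hc followed the hepatocyte markers in the MPA experiment (r = 0.982) and not in the NET-A experiment (r = -0.067). Over the 16 arrays this r was 0.705, and 0.375 without the 2 farthest arrays. C7 followed the platelet markers (r = 0.758, rho = 0.732; 0.578 and 0.883 within the experiments, 0.726 without 2 arrays). Cfd followed the fat-cell markers less closely (r = 0.490, and 0.167 without the 2 farthest arrays). Its r of largest size was with smooth muscle markers, at -0.6575 (-0.636 and -0.694 within the experiments). C3ar1 also followed mesothelium (0.692, 2 genes) and T cell markers (0.600, 2 genes). Cfi followed B cell (0.538) and T cell markers (0.523) somewhat more than hepatocyte markers (0.489). Hc also followed skeletal muscle (0.544), B cell (0.537) and erythroid markers (0.531).

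**Figure D4:**
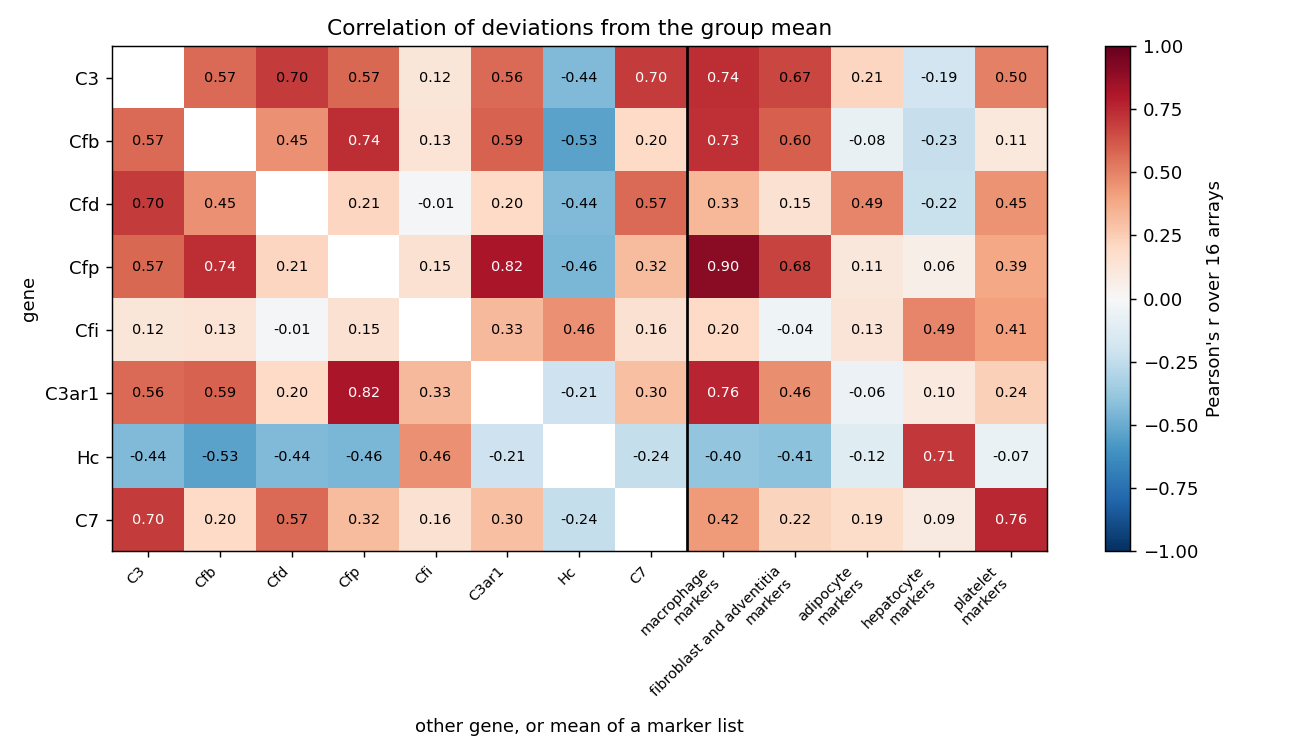
Pearson correlation over 16 arrays between each gene (rows) and each other gene or the mean of a marker list (columns), from deviations from the group mean; red is positive, blue negative. Cfp, C3ar1, Cfb and C3 share high values with macrophage markers. Cfp, C3 and Cfb do so with fibroblast and adventitia markers too (0.68, 0.67 and 0.60). C7 shares them with platelet markers, and Hc with hepatocyte markers (0.71, but 0.375 without the 2 farthest arrays). C6 is left out because it was kept in 1 experiment. Further marker lists, some with values of like size, are not drawn.

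The 3 genes most like each member over the 16 arrays, among 14518, were found by the same measure. Those of Cfp were Fcer1g (r = 0.966), Arhgap25 (0.951) and Myo1f (0.941), all genes of leukocytes. For C3ar1 they were Thy1 (0.920), Gas2l3 (0.912) and Ccnb2 (0.910), and for Cfb Plscr1 (0.957), the chemokine Ccl19 (0.936) and Ripk3 (0.930). C3 came closest to Htra4 (0.920), to C4b (0.915), the complement component next to it in the cascade's early steps, and to Rab3il1 (0.908). Cfd came closest to a probe without a gene symbol, NAP025923-1 (0.988), then to Comtd1 (0.958) and Slc7a10 (0.948).

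The genes most like Hc were 1300017J02Rik (0.954), Gnmt (0.924), an enzyme of methionine metabolism abundant in liver, and Rgn (0.912). The values for Cfi were lower: Rassf5 (0.827), a transcript known by its Ensembl number alone (0.817) and Ahsg (0.795). Within the MPA experiment, the correlation of Cfi with Rassf5 was 0.459. The likest features of C7 were 3 cDNA clones, at 0.912, 0.882 and 0.850.

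**Figure D5:**
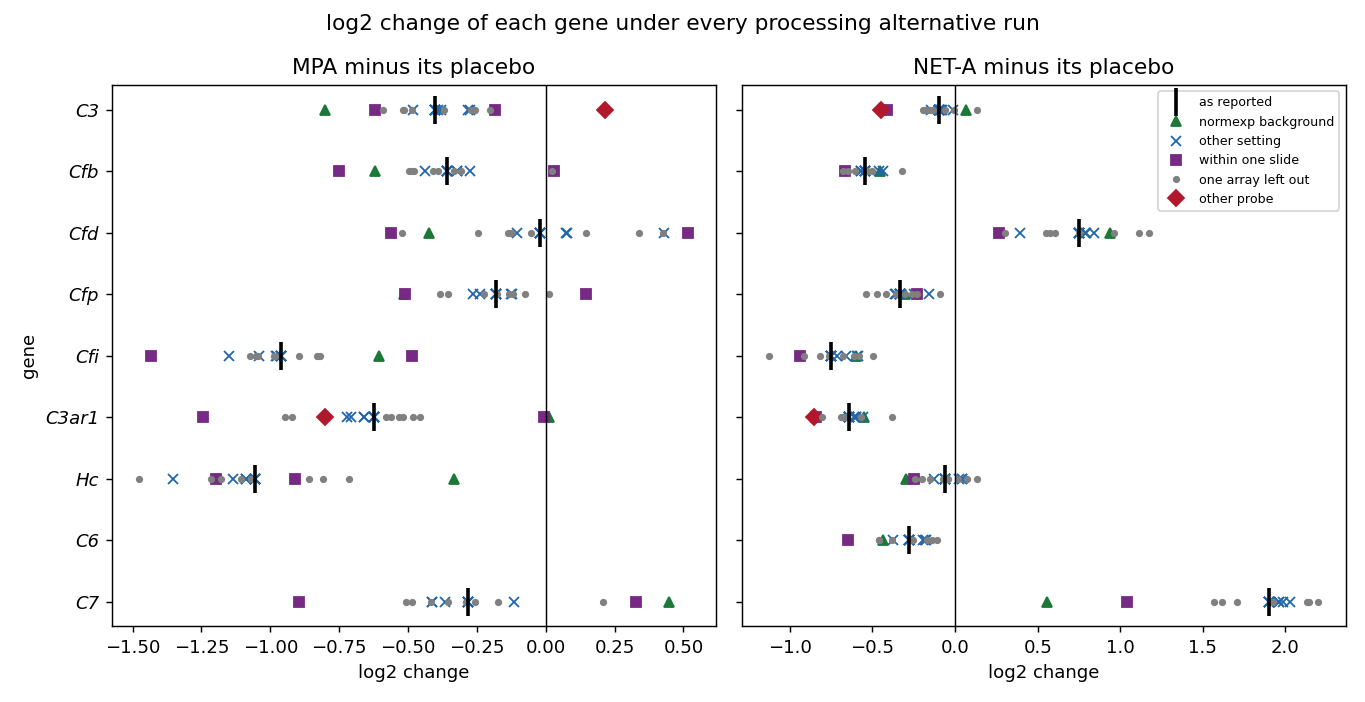
Log2 change of each gene (rows) with MPA (left) and NET-A (right) under each processing alternative; the black bar is the reported value. With MPA, Cfi and Hc stay below 0 in every alternative drawn, at -1.43 to -0.49 and -1.48 to -0.33, while C3, Cfb, Cfd, Cfp, C3ar1 and C7 cross 0. With NET-A, C7 (0.56 to 2.20) and Cfd stay above 0, and Cfb, Cfi, Cfp, C3ar1 and C6 below it, while C3 and Hc cross 0.

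In the whole series, the share of spots well above background was 46.3% to 60.6% per array with MPA and its placebo and 62.3% to 78.5% with NET-A and its placebo, and 0 spots were saturated. The precision is limited by the number of arrays. All 6 smooth muscle and all 6 endothelial markers were well above background on every array, as the label aorta requires. Skeletal muscle markers ran from -1.67 to 2.86 on MPA placebo arrays and from -1.88 to -1.50 on MPA arrays, brown fat markers from 4.31 to 4.82 on NET-A placebo arrays and from 2.88 to 5.70 on NET-A arrays. Neutrophil markers were higher with MPA in 6 of 6 kept (median 1.89) and with NET-A in 7 of 9 (median 0.94). Erythroid markers were higher with both, in 4 of 4.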

How the data were processed

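Aortas were measured on 16 one-colour Agilent arrays. The authors deposited scanner files whose intensity values had been extracted, background-subtracted and processed, per the file headers, by Feature Extraction version 10.7.1.1 for MPA and its placebo and 11.0.1.1 for NET-A and its placebo, with probes annotated on mm9. The authors also deposited a series table of log2 values, used here as an alternative. Its scale and centring, not given in the sources used here, were read from the values: each column correlated by 0.9876 or more, with a slope from 0.9807 to 1.013, with its own array's quantile-normalized log2 signal less each probe's median over the experiment. The column medians ran from -0.0293 to 0.0153.

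The processed signal of each probe (mean of its spots, outlier spots left out) was taken as log2 and set relative to the array's 75th percentile. A probe was tested where it was well above background on at least 4 of the 8 arrays of an experiment. Progestin and matching placebo arrays were set against each other in limma 3.58.1 in R 4.3.3 with Benjamini-Hochberg adjustment over all genes, and all adjusted p-values come from it. The difference and the mean of the 2 responses were fitted over all 16 arrays. The fits were tested on simulated data with independent arrays and changes larger than any member's in the reported fits. That run does not show what they recover at the sizes seen here. Normexp correction (offset 50) used the mean signal, or in the NET-A experiment the median signal.

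The members, marker lists and other complement genes were chosen with earlier results of these data known. Other complement genes are named where the difference was 0.5 or more in size, and the 3 likest genes of each member by r. The alternatives were other scalings, filters, background correction, probes, slide and replicate blocks, array weights and leaving out each array.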

Additional observations from a re-analysis of the deposited data

Results flagged for a closer look

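In 5 of the 44 groups of 4 arrays looked at, 1 array stood far from the other 3 by Dixon's test, which chance alone gives in about 1 of 20 groups. The groups share arrays and are not independent, so that share does not measure how unusual 5 flags are. Replicate 4 of the MPA placebo was the highest of its group for Cfb, at 4.06, and for C6, at -1.15. In that C6 group only 2 of 4 arrays were well above background. Replicate 4 of the NET-A placebo was the highest for C3 (main probe), at 6.99, and for the second probe of C3ar1, at -1.47. NET-A replicate 2 was the lowest for the main probe of C3ar1, at -1.88, where the rest of its group lay close together, from -1.61 to -1.58. Macrophage markers were also highest on both of these placebo arrays, at mean levels of 4.42 and 3.36; their part in the values was not tested.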

How the results depend on the processing

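No member passed the adjusted limma test under any alternative run. Of 790 alternative values for 33 member results, 748 kept their sign and 42 did not, and the cause of the reversals was not tested. Some settings cannot change a member's log2 change, such as other filters, a joint fit of all arrays, and slide or replicate blocks. The setting with the other probe of C3 and C3ar1 was also counted for members whose probe it leaves unchanged. Such values keep their sign by construction, so 748 of 790 overstates how well the signs hold. With MPA, normexp gave C3ar1 0.012 and C7 0.45; Cfd was 0.078 with quantile normalization, 0.073 in the series table, 0.43 with array weights and 0.52 within slide 2, where C7 was 0.33; within slide 1 Cfb was 0.031 and Cfp 0.15; the other C3 probe gave 0.21. With NET-A, normexp gave C3 0.065, and Hc was 0.044 with quantile normalization, 0.025 with median scaling and 0.045 in the series table. For the difference of responses, normexp gave Cfb -0.17 and Cfp -0.21. C3ar1 was -0.061 with quantile normalization, -0.064 in the series table, -0.15 with median scaling and -0.15 with array weights. Cfp was -0.014 with median scaling and -0.0059 with array weights, and the other C3 probe gave 0.66.

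Leaving out 1 array at a time gave, with MPA, Cfb -0.50 to 0.023, Cfd -0.52 to 0.42, Cfp -0.38 to 0.014 and C7 -0.51 to 0.21, and 5 to 8 members lower. With NET-A it gave C3 -0.19 to 0.13 and Hc -0.24 to 0.13. For the difference it gave Cfb -0.039 to 0.57, Cfp -0.092 to 0.36, C3ar1 -0.31 to 0.18 and Cfi -0.47 to 0.17. Over all genes, the number called was 0 as reported. It was 1 for MPA with slide as a block and with all 16 arrays in one fit. For the difference it was 0 to 1 with 1 array left out. For the mean it was 1 with quantile normalization, 4 with slide as a block, 17 with array weights and 0 to 8 with 1 array left out.

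Same-numbered arrays did not deviate together (r from -0.231 to 0.231 in the MPA experiment and -0.331 to 0.328 in the NET-A experiment, 4 pairs each), so the numbers were not taken to pair samples. Progestin and placebo arrays that shared a slide did deviate together in the NET-A experiment (r from 0.143 to 0.464). In the MPA experiment such pairs ran from -0.231 to 0.259. Slide was a block in an alternative only, not in the reported fits. The replicate block gave 1 gene called for the difference and 8 for the mean, 0 of them members. The 4 arrays a group and dim probes (Cfi and C7 in the NET-A experiment, C6) limit the precision. Where every array had to be well above background, C7 could not be tested with either progestin, nor Cfi with NET-A, nor the difference and mean for either gene.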
